A study of Danio rerio with 6 samples.

Results

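The maternal RNA pool of the zebrafish zygote was described from the input libraries of a study of germ plasm RNA. The members are the 3 libraries labelled as input, out of 6 samples in the series, and only their values were used. Input is the RNA of the zygotes before any immunoprecipitation. The labels give Danio rerio zygotes kept under standard conditions as the source, and no strain, genotype, treatment, age in hours or number of embryos. The design text names ovary where the sample labels name zygotes, and the labels were used. The question was which genes make up the RNA that the mother has left in the egg.

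A fish zygote lives on RNA and protein made by the oocyte. Its own genome stays almost silent through the first cleavages, and the embryo then activates its genes while many maternal messages are cleared by deadenylation and decay. Maternal messages therefore hold what the cleaving embryo needs first: cell cycle regulators, cytoskeleton, germ plasm, and the factors that will switch the zygotic genome on.

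The libraries held 10481205, 16048024 and 19804774 reads in replicates 1, 2 and 3, counted over 21051 gene entries. Levels are given as CPM, the reads of an entry for every 1000000 reads of its library, or as a share of all reads. A longer transcript gives more reads per molecule and no transcript lengths were used, so ranks order genes by reads and not by molecules. An entry was called detected at 1 CPM or more in all 3 libraries. Of the 21051 entries, 11175 were detected (53.1%), 3196 had 0 reads in all 3 libraries (15.2%) and the rest lay between. With 3 reads as the floor, a library could miss an entry of up to 0.286, 0.187 and 0.151 CPM in replicates 1, 2 and 3, and 0 reads over the 3 libraries together allow up to 0.0647 CPM. Floors cover counting error only, because the reads carry no molecular identifiers. The labels do not say whether the replicates came from separate clutches, so the SD given with n = 3 may be technical. In bulk RNA, fewer cells of a type and less RNA per cell cannot be told apart.

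The library labels were checked against marker lists, which were chosen with earlier results of these data known. The oocyte and egg coat lists cannot tell zygotes from ovary, since RNA made by the oocyte is present in both. Markers of ovarian follicle cells are given below. Of 22 entries for oocyte forms of general factors and other oocyte genes, 20 were detected, and of 19 egg coat genes 17 (all entries 53.1%). Of 20 markers of muscle, blood, liver, pancreas and gut, 0 were detected, and the highest of them, the trypsin gene try, averaged 1.63 CPM. The check is partial, since 4 muscle, 5 blood, 11 liver and 4 pancreas and gut names were not matched to an entry. The same holds for 4 neural and lens names and 4 names of the oocyte list. Names not matched were not analysed here. Of 5 neural and lens markers 1 was detected, syt1a at 1.14, 8.35 and 1.11 CPM in replicates 1, 2 and 3. Replicate 2 alone carried most of its level.

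A handful of entries dominated the reads. The 6 entries with most reads took 28.9%, 27.0% and 34.3% of replicates 1, 2 and 3, or 30.1 ± 3.78% (SD, n = 3), with the largest share in replicate 3. One entry without a name in the file or the tables used here, ENSDARG00000080337, took 11.0%, 11.95% and 16.4%. The unnamed ENSDARG00000082753 took 7.86 ± 1.07% and si:dkey-153m14.1 took 4.97 ± 0.734%. The other 3 were ENSDARG00000088951 with 1.95 ± 0.511%, ENSDARG00000085067 with 1.099 ± 0.202% and zgc:158463 with 1.09 ± 0.280%. Only the last has a RefSeq gene type, and it is ribosomal RNA. The reads then dropped steeply, and the entry at rank 7, the protein-coding gene zgc:114130, took 0.257 ± 0.0267%.

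Below those 6 entries no single gene stood out. The 10 entries with most reads held 30.9 ± 3.69% of all reads and the 100 with most reads 37.6 ± 3.55%. Of the reads outside the first 6 entries, the next 10 entries held 2.25 ± 0.264% and the next 100 held 11.2 ± 0.561%. It took 360 entries to reach 25% of those reads, 1231 to reach 50%, 3012 to reach 75% and 5404 to reach 90%. By mean level, 19 entries lay at 1000 CPM or more, 1967 between 100 and 1000, 6189 between 10 and 100, and 4595 between 1 and 10. Entries that RefSeq types as protein-coding took 65.2 ± 3.42% of all reads, those it types as long non-coding RNA 0.0463 ± 0.00563%, and entries with no RefSeq type 33.6 ± 3.55%, most of which were the reads of the first 5 entries.

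**Figure D1:**
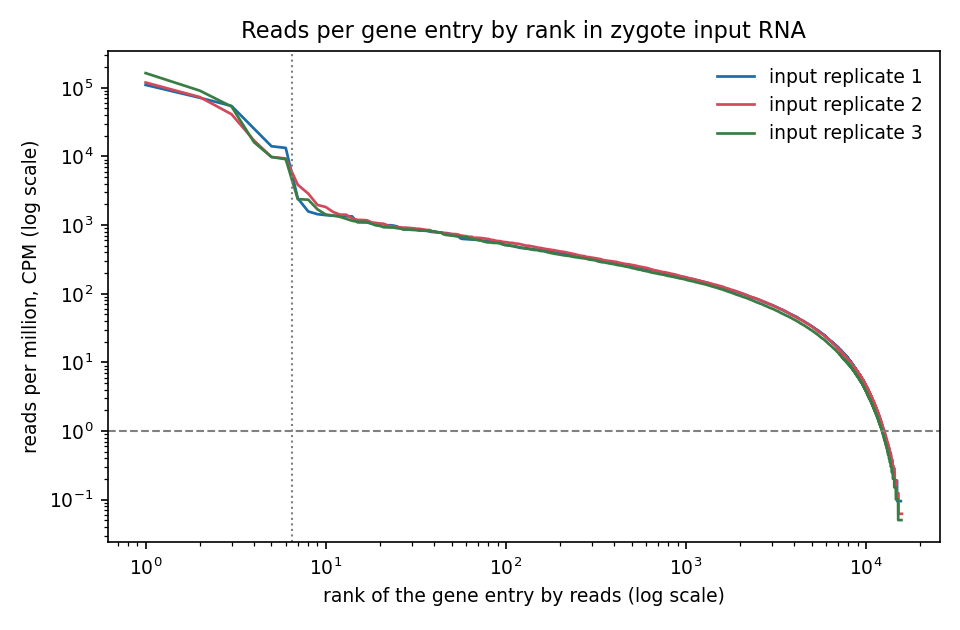
CPM of each gene entry (log scale) against its rank within the library (log scale), 1 line for each input library; the dotted line stands after rank 6 and the dashed line at 1 CPM. The lines fall steeply after the first 6 entries, which took 27.0% to 34.3% of the reads, and then run together.

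Among genes with a known product, mt-co1, mat2aa, dnmt1, plk3 and actb2 had most reads on average. In replicate 1, mt-co1 and mat2aa stood lower, at ranks 13 and 14. The cytochrome c oxidase gene mt-co1 stood at 1344, 3867 and 2346 CPM in replicates 1, 2 and 3, rank 8 by the mean. It was lowest in replicate 1 and more than 2-fold higher in replicate 2. The gene mat2aa, for the enzyme that makes the methyl donor S-adenosylmethionine, stood at 1343, 1967 and 1700.0 CPM (rank 9), and dnmt1, the maintenance DNA methyltransferase, at 1581, 1837 and 1322 CPM (rank 10). Both were highest in replicate 2. The polo-like kinase gene plk3 was the steadiest of the first genes, at 1399, 1423 and 1378 CPM (1399.9 ± 22.3). It was followed by the cytoplasmic actin gene actb2 at 1349.5 ± 85.2 CPM.

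The remaining genes among the 30 with most reads covered lysosome, transcription, RNA and protein handling. For the lysosome, the acid phosphatase gene acp5a averaged 1219 ± 201 CPM, the membrane protein gene lamp2 1130.4 ± 133 and the protease gene ctsl1a 996 ± 342. The last was 1369.6 CPM in replicate 1, 919 in replicate 2 and 699 in replicate 3, the widest spread of the 3. The endocytic adaptor gene dab2 was at 1102 ± 96.98 CPM. Transcription factors and their partners were nanog at 1186 ± 205, the zinc finger gene sall4 at 1025 ± 64.2, the co-activator gene pprc1 at 944 ± 151 and the co-repressor gene ctbp1 at 909 ± 111 CPM. The mitotic kinase gene plk1 stood at 1073 ± 134 CPM and rif1, a regulator of replication timing, at 1019 ± 63.1. RNA and protein handling was represented by the poly(A) polymerase gene papolg at 873 ± 83.4, the deadenylase gene cnot6 at 863 ± 43.8, ubap2l, for an RNA-binding protein of stress granules, at 939 ± 134, the elongation factor gene eef1a1l1 at 887 ± 37.96 and hspa5, the chaperone of the endoplasmic reticulum, at 863 ± 169 CPM. The other 3 were mt-atp6 at 879 ± 606 CPM, si:ch211-266i6.3 at 930.2 ± 146 and wu:fa03a11 at 908 ± 29.3.

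Entries on the list of genome activation factors, which also holds Smads and general factors, were mostly detected, and some had many reads. Of 24 entries on the list of genome activation factors 21 were detected (all entries 53.1%), 6 were among the 500 entries with most reads (all entries 2.38%), and the median was 67.2 CPM against 3.58 CPM over all entries. The factors Nanog, Pou5f1 and Sox19b act together at zebrafish genome activation. The transcript of nanog stood at 1028, 1418 and 1113 CPM, that of pou5f1 at 614, 597 and 505 CPM and that of sox19b at 373, 381 and 371 CPM. The order nanog, pou5f1, sox19b in reads held in each library. Among the other members were ctcf, for the chromatin insulator protein, at 433 ± 70.7 CPM, foxh1, a partner of Smads in Nodal signalling, at 193 ± 17.5, the TATA-binding protein gene tbp at 191 ± 12.1 and the T-box gene eomesa at 169 ± 6.05. The 3 entries below the threshold were smad1, smad3b and a second entry named SMAD4, each of which passed 1 CPM in at least 1 library.

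Genes that the embryo switches on itself were rare. Of 31 entries for early zygotic genes 3 were detected (all entries 53.1%) and 23 averaged under 1 CPM. By comparison, 12770 of all 21051 entries averaged 1 CPM or more. In all 3 libraries 9 of the 31 had 0 reads (all entries 15.2%). The list median was 0.0673 CPM, and all 31 together took 0.00456 ± 0.00151% of the reads. The organiser and mesoderm genes chd (Chordin), fgf8a, tbx16 and foxa2, and the endoderm gene sox17, were among those with 0 reads. The organiser gene gsc stood at 0.573, 0.0623 and 0.253 CPM, and the mesoderm gene ntla at 0, 0.0623 and 0.404. Those values come to at most 8 reads in a library. Another 6 names on the list were not matched to an entry and were not analysed here. The 3 detected members were her7, a gene of the segmentation clock, at 16.1, 31.7 and 14.4 CPM, the chemokine receptor gene cxcr4b at 8.30, 13.3 and 13.3 and tbx6 at 2.29, 4.92 and 1.67.

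Genes known from maternal-effect mutants or maternal function were well represented. Of 29 such entries 26 were detected (all entries 53.1%) and 8 were among the 500 with most reads (all entries 2.38%). Their median was 169 CPM, against 3.58 CPM over all entries. Beside the factors above, mid1ip1l, which acts on the egg cytoskeleton, was at 535, 409.9 and 490.1 CPM, and lrmp, needed for pronuclei to meet, at 245, 284 and 304. Among members known from the vegetal pole and the dorsal axis, the kinesin linker gene sybu was at 249.9, 254 and 265 CPM, grip2a at 88.9, 89.1 and 57.3 and huluwa (hwa), the dorsal determinant, at 11.3, 12.9 and 15.2. Each of these was detected in every library. The members not detected were the Nodal ligand gene ndr1 and both entries named mcm3. The ndr1 transcript stood at 8.97 and 9.14 CPM in replicates 1 and 3 and at 0.436 in replicate 2.

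Oocyte forms of general factors and other oocyte genes, listed together, were widely detected, as counted above. Their median was 86.6 CPM, and together they took 0.237 ± 0.0467% of the reads. The oocyte histone stem-loop binding protein gene slbp2 led the list with 669, 539 and 547 CPM, ahead of the meiotic cyclin gene ccna1 with 366, 211 and 232 CPM. The oocyte Wee kinase gene wee2 stood at 260.0, 196 and 191 CPM. All 3 were highest in replicate 1. Lower members were bmp15 (104 ± 15.95 CPM), nobox (79.8 ± 24.4), gdf9 (26.1 ± 5.63) and mos, the kinase that holds the egg in meiosis (17.6 ± 1.96). The oocyte transcription factor gene figla had 0 reads in every library, and zar1 missed the threshold in replicate 3, with 6.11, 8.60 and 0.454 CPM. Genes of meiotic prophase had a median of 1.48 CPM, against 3.58 CPM over all entries. Of the 11, 8 averaged 1 CPM or more (all entries 12770 of 21051) and 3 were detected (all entries 53.1%). Of these, the mismatch repair gene mlh3 had most reads at 49.8 ± 13.9 CPM. The synaptonemal complex gene sycp3 and the recombinase gene dmc1 had 0 reads. Egg coat genes were detected widely but were not abundant. They had a median of 15.0 CPM, and 0 of 19 were among the 500 entries with most reads (all entries 2.38%). The highest, zp3d.1, stood at 77.3 ± 5.88 CPM.

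Markers of ovarian follicle cells, which surround the oocyte, were unevenly present. Of 9 markers 3 were detected (all entries 53.1%). Another 4 had 0 reads (all entries 15.2%), namely star, lhcgr, cyp19a1a and inha. The listed names amh, fshr and wt1a were not matched to an entry and were not analysed here. The steroid side-chain cleavage gene cyp11a1 was at 185, 258 and 225 CPM. By contrast, cyp17a1, for the next steroid-forming enzyme, was at 6.20, 11.4 and 63.5 CPM, more than 5-fold higher in replicate 3 than in either other library, and hsd3b1 was at 18.1, 21.8 and 12.3 CPM. The part of follicle cells in these reads was not tested.

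All 10 germ plasm genes on the list were detected (all entries 53.1%), with a median of 49.9 CPM. Of the 10, 3 were among the 500 with most reads (all entries 2.38%). In order of reads, ca15b stood at 391 ± 106 CPM, celf1 at 341 ± 49.6, tdrd7 at 265 ± 15.0 and dazl at 170.5 ± 39.3. The germ cell helicase gene vasa stood at 71.3, 51.7 and 41.9 CPM, nanos3 at 53.4, 44.4 and 37.0 and dnd at 18.2, 16.8 and 10.1. Of the 10 genes 6 were highest in replicate 1 and 7 lowest in replicate 3, against 39.9% and 45.9% of all entries at a mean of 1 CPM or more. The gene buc, for the Bucky ball protein that organises germ plasm, was the highest of the germ granule and piRNA list at 794, 676 and 737 CPM (rank 48). That list had 17 of 18 entries detected, among them tdrd6 at 227 ± 15.5 CPM and the Piwi genes piwil2 at 80.4 ± 8.92 and piwil1 at 30.02 ± 3.59. Its undetected entry was mov10b.1, with 0 reads.

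**Figure D2:**
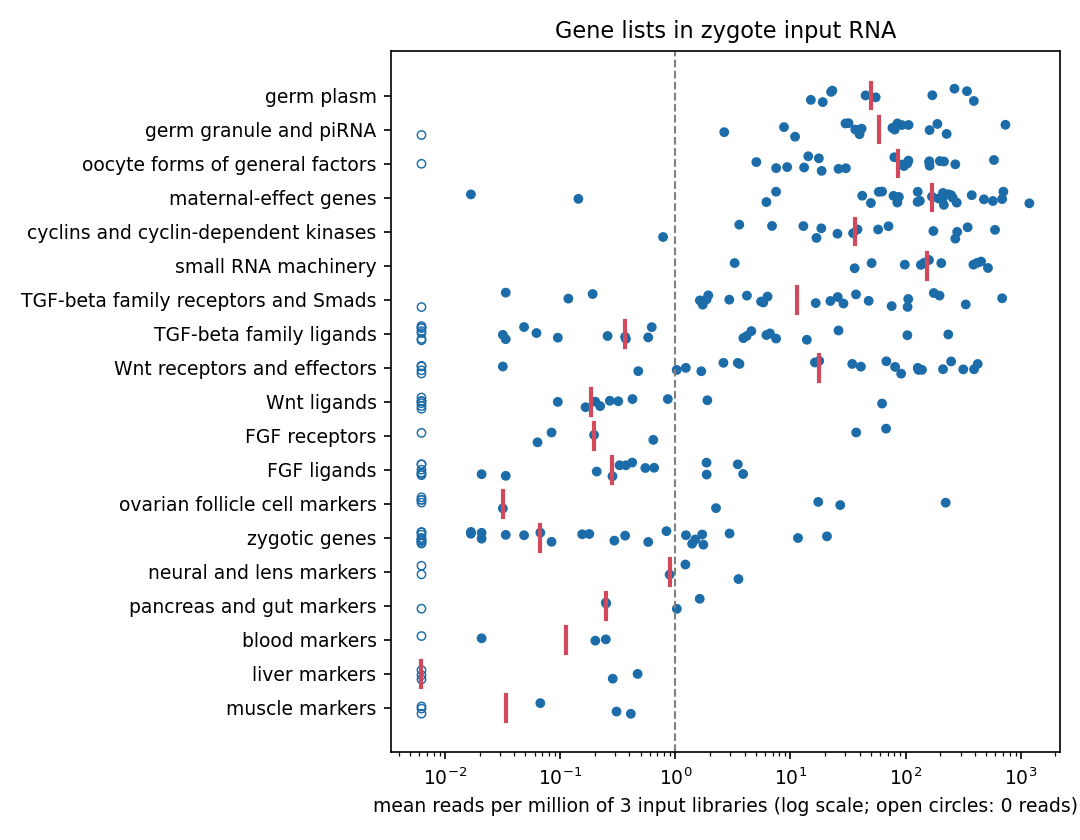
Mean level of each gene entry over the 3 input libraries (CPM, log scale) by gene list; points are entries, red bars are list medians, open circles are entries with 0 reads and the dashed line is 1 CPM. Germ plasm, oocyte and maternal-effect entries lie mostly to the right of the line, whereas zygotic genes and markers of other tissues lie mostly to the left.

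For the Wnt and TGF-beta families, 6.25% and 33.3% of the ligand entries and 63.0% and 61.5% of the receptor and effector entries were detected, against 53.1% of all entries. Of 16 Wnt ligand entries only wnt8a was detected, at 50.8, 64.1 and 72.5 CPM, and it held 93.3% of the reads of the list. The next, wnt11, stood at 4.77, 0.872 and 0.0505 CPM, and 6 ligand entries had 0 reads (all entries 15.2%). Of 27 Wnt receptors and effectors 17 were detected, led by the beta-catenin destruction complex genes apc at 422 ± 24.8 CPM, axin2 at 392 ± 14.7 and axin1 at 317 ± 35.4. Both beta-catenin genes were abundant, ctnnb2 at 293, 271 and 181 CPM and ctnnb1 at 239, 218 and 177, and both were lowest in replicate 3. Of the Frizzled receptor genes, fzd7b had most reads with 139 ± 34.2 CPM, while fzd4, fzd9a and fzd3a had 0. Of the nuclear partners of beta-catenin, lef1 (129 ± 12.9 CPM), tcf7l1a (127 ± 29.1) and tcf7l1b (40.9 ± 0.490) were detected, tcf7l2 had 0 reads and tcf7 had 1 read in all.

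For the TGF-beta family, 9 of 27 ligand entries and 16 of 26 receptor and Smad entries were detected. The maternal ligand gene dvr1 (Vg1) led with 321, 177 and 206 CPM, highest in replicate 1, followed by the oocyte ligand genes bmp15 and gdf9 given above. The embryonic ligand genes bmp2b, bmp4 and bmp7a averaged 0.367, 0.0486 and 0.0954 CPM, and the Nodal antagonist genes lft1 and lft2 had 0 reads. Among receptors matched to an entry, the activin and Nodal receptor genes acvr1b (197 ± 24.95 CPM), acvr2aa (176 ± 42.1) and acvr2b (105 ± 4.91) and the BMP receptor gene bmpr1aa (104 ± 8.67) had most reads. The listed names acvr1, acvr1bb, acvr2bb and smad6b were not matched to an entry and were not analysed here. The Nodal co-receptor gene oep stood at 54.4, 54.4 and 34.5 CPM. The type II BMP receptor gene bmpr2a had 0 reads, and bmpr2b was at 0, 0 and 0.353 CPM. Signal transducers were led by smad5 at 616, 779 and 670.4 CPM and smad2 at 308, 401 and 289.

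FGF signalling genes had few reads, 0.00140 ± 0.000467% for ligands and 0.0106 ± 0.00204% for receptors. The counts below stand against 53.1% of all entries detected at 1 CPM. Of 19 ligand entries 2 were detected, fgf11a at 3.88 ± 2.99 CPM and fgf12b at 1.87 ± 0.572, both for FGFs that stay inside the cell. Of 7 receptor entries 2 were detected, fgfr1a at 84.0, 60.4 and 58.6 CPM and fgfr1b at 40.9, 45.4 and 25.3, whereas fgfr2, fgfr3 and fgfr4 averaged at most 0.197 CPM. With detection at 0.1 CPM, 6 ligand entries and 2 receptor entries passed, against 13247 of all 21051 entries. Of 26 Hedgehog and Notch entries 11 were detected, with the Notch effector gene rbpja at 108 ± 10.5 CPM, the higher of 2 entries for the receptor gene notch1a at 103 ± 35.3 and the Hedgehog inhibitor gene sufu at 84.6 ± 24.1. The ligand genes shhb, ihha, dla and dld had 0 reads. The listed names shha and mib were not matched to an entry and were not analysed here.

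Cell cycle genes on the lists were nearly all detected, against 53.1% of all entries. Of 16 cyclin and cyclin-dependent kinase entries 15 were detected, with cdk4 the exception at 1.62, 0.374 and 0.353 CPM. The mitotic cyclin gene ccnb1 stood at 693, 538 and 559.6 CPM and ccnb2 at 363, 357 and 317, whereas the G1 cyclin gene ccnd1 was at 2.10, 1.56 and 7.12. In every library the reads of this G1 cyclin were few beside those of either mitotic cyclin. Of 25 mitotic regulators 22 were detected, led by plk1, the phosphatase gene cdc25 at 605 ± 47.8 CPM and the anaphase activator gene cdc20 at 431 ± 32.7. The gene fzr1, whose product activates the same ubiquitin ligase as Cdc20 but in G1, averaged 0.742 CPM and was not detected. Of 25 replication factor entries 22 were detected, with the origin licensing gene cdc6 at 352 ± 23.5 CPM.

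Regulators of chromatin and of RNA decay took more of the reads than ribosomal proteins did, with reads not scaled by length. Translation factors (0.772%) and the listed mitochondrially encoded genes (0.738%) did so too. Over all entries, 53.1% were detected and 2.38% were among the 500 with most reads. The 39 DNA methylation and histone modifier entries took 0.860 ± 0.0734%, with 35 detected and 11 among the 500 with most reads. After dnmt1 came the histone H3 lysine methyltransferase gene mll2 at 673 ± 50.3 CPM. The exceptions were the demethylation genes tet1 and tet3 and the dnmt1 partner gene uhrf1, which averaged 0.0208, 0.343 and 0.272 CPM, and dnmt3ab, which averaged 1.04 CPM without passing in all 3 libraries. The 33 mRNA decay factors took 0.676 ± 0.0302%, with 31 detected and 10 among the 500 with most reads. Beside cnot6 they included cth1, a zinc finger protein gene of the egg, at 802, 704 and 612 CPM, and parn, a poly(A)-specific ribonuclease gene, at 574 ± 39.7. The decapping enzyme gene dcp2 had 0 reads. All 12 small RNA machinery entries were detected, with dicer1 at 399.9, 535 and 421 CPM and AGO2 at 412, 393 and 450.0. Of 44 RNA-binding and translational control entries 41 were detected, led by caprin1b (589 ± 32.8 CPM) and igf2bp3 (453 ± 14.3).

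Most of the listed protein synthesis and energy entries were detected, against 53.1% of all entries. Of 84 cytosolic ribosomal protein entries 80 were detected, with a median of 27.2 CPM. The median was 3.58 CPM over all entries and 26.1 CPM over all detected entries. Only rps3a, at 335, 209.6 and 289 CPM, was among the 500 with most reads (all entries 2.38%). The whole list took 0.380 ± 0.0597%. These messages are short, and reads were not scaled by length. The 77 translation factor entries took 0.772 ± 0.0134%, with 61 detected and 9 among the 500 with most reads. Of 87 nuclear oxidative phosphorylation entries 67 were detected, with a median of 10.5 CPM and the ATP synthase gene atp5f1b at 506, 501 and 494 CPM. Of 71 mitochondrial ribosomal protein entries 60 were detected, with a median of 8.22 CPM, and of 25 glycolytic enzyme entries 17, led by the aldolase gene aldoaa at 198 ± 19.8 CPM. Of genes for protein folding and turnover, 19 of 21 chaperone entries were detected, with hspa8 at 755 ± 90.7 CPM after hspa5, and 38 of 44 proteasome subunit entries, with psmd11a highest at 150.2 ± 9.66 CPM. Of 19 cathepsin and cystatin entries 11 were detected (57.9%), near the 53.1% of all entries. Of 27 histone entries 21 were detected, with the variant gene h2afva highest at 241 ± 41.7 CPM. All 13 entries on the list of mitochondrially encoded genes were detected, with a median of 416 CPM and 10 among the 500 with most reads. Whether any unnamed entry is also encoded by mitochondrial DNA was not tested, so their share covers the listed genes only.

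**Figure D3:**
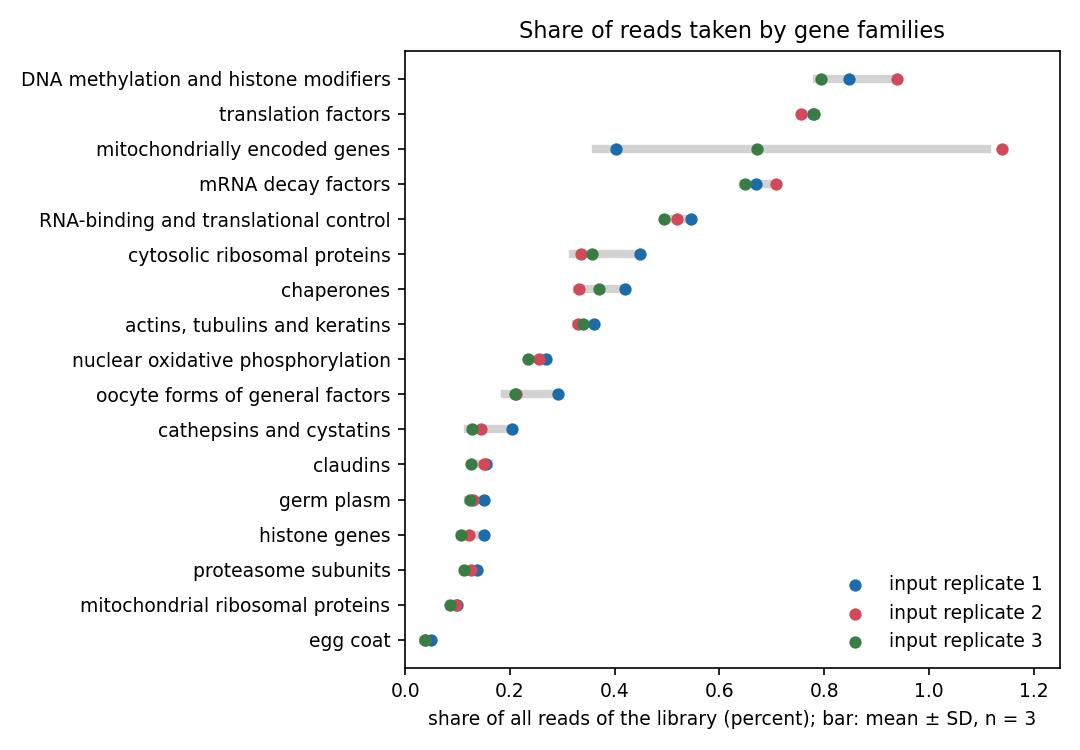
Share of all reads (percent) taken by gene families; each point is 1 input library and the grey bar is the mean ± SD (n = 3). The listed mitochondrially encoded genes span from 0.402% in replicate 1 to 1.14% in replicate 2, the widest range of the families plotted, whereas translation factors lie at 0.772 ± 0.0134%.

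Of the families in the plot of shares, mitochondrially encoded genes had the largest ratio of the highest to the lowest library, 2.84. The 13 listed genes took 0.402%, 1.14% and 0.671% of replicates 1, 2 and 3. All 13 were lowest in replicate 1, and 12 were highest in replicate 2 and 1 in replicate 3. Among the 12770 entries at a mean of 1 CPM or more, 26.3% were lowest in replicate 1. Ribosomal protein messages leaned the other way, since 63 of the 83 entries at that level were highest in replicate 1 (75.9%), against 39.9% of all entries. With the reads of the first 6 entries taken out of the total, the count for ribosomal proteins was again 63 of 83 (all entries 38.3%), and the mitochondrial genes were highest in replicate 2 in 11 cases. Of 23 histone entries at that level 18 were highest in replicate 1 (78.3%).

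Across genes the libraries agreed closely at high levels and loosely at low ones. Over 13919 gene entries at log2(CPM + 1), Pearson's r was 0.937 for replicates 1 and 2, 0.945 for 1 and 3 and 0.938 for 2 and 3. These are descriptions across genes, which are not independent replicates and share the depth of their library. Of the 6360 entries at a mean of 20 CPM or more, between 94.2% and 94.8% differed by less than 2-fold in a pair of libraries, and the median ratio of the highest to the lowest library was 1.41. The 3 libraries shared 70 of their 100 top entries and 391 of their 500 top entries. The median coefficient of variation was 61.1% for entries at 1 to 5 CPM, 35.1% at 5 to 20, 20.7% at 20 to 100, 13.5% at 100 to 500 and 12.02% above. Counting error alone would give 17.1%, 8.21%, 4.01%, 2.07% and 1.02% in the same bands. The spread includes the scaling shift of replicate 3, a median log2 ratio of 0.16 against either other library at 20 CPM or more, which was 0.04 and 0.01 with the first 6 entries out of the total. The values of genes near 1 CPM had the widest spread.

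**Figure D4:**
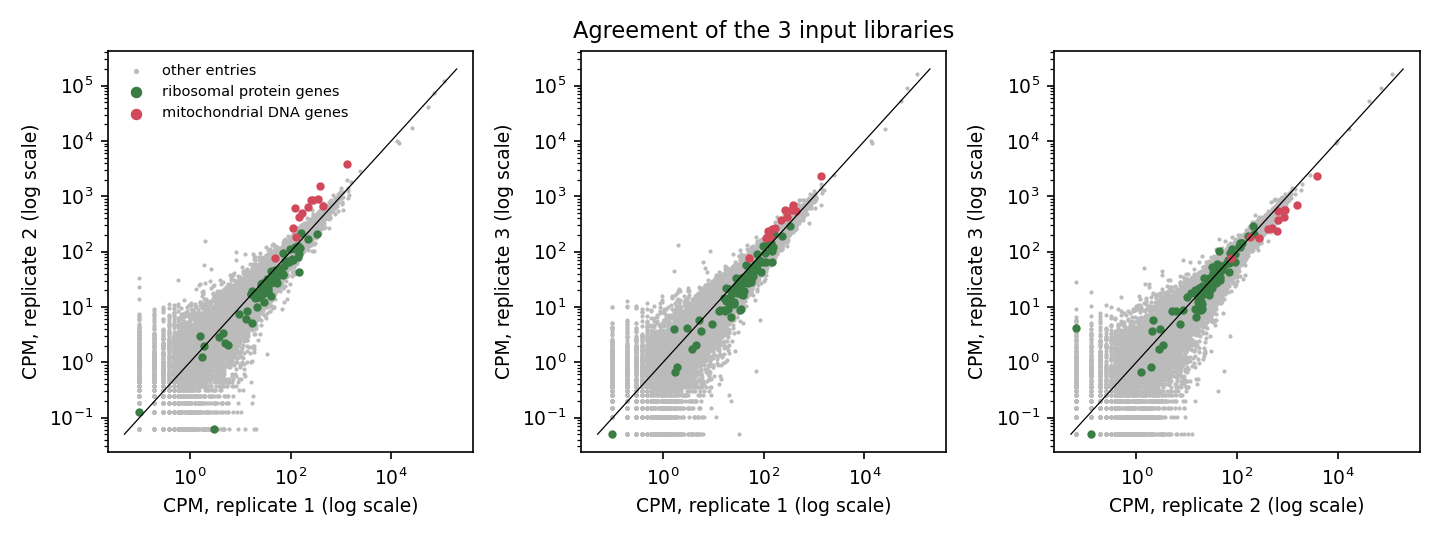
CPM of each gene entry in pairs of input libraries (log scales), 1 panel for each pair, with ribosomal protein genes in green, mitochondrially encoded genes in red and the line of equality. The cloud narrows with level, with Pearson's r of 0.937, 0.945 and 0.938, and the red points lie above the line in replicate 2 against replicate 1.

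Some genes broke from this agreement. Of the 6360 entries, 770 differed by 2-fold or more between the highest and lowest library, 27 by 5-fold or more and 11 by 10-fold or more. Of the 27, 14 were lowest in replicate 1, 5 in replicate 2 and 8 in replicate 3. Among all entries at a mean of 1 CPM or more, 26.3%, 27.8% and 45.9% were lowest in replicates 1, 2 and 3. With the first 6 entries out of the total these shares were 29.2%, 34.3% and 36.6%. That set is wider than the 6360 entries, for which the shares were not counted. Of the 27, 5 were highest in replicate 1, 14 in replicate 2 and 8 in replicate 3. In the wider set 39.9%, 39.5% and 20.5% were highest in replicates 1, 2 and 3. With the first 6 entries out of the total they were 38.3%, 33.4% and 28.3%. The widest of the 27 was hsd3b7, a gene of bile acid synthesis, at 69.0, 56.0 and 0.707 CPM, from 723, 899 and 14 reads. Next came 1 of 2 entries named fbxo10 in the file, ENSDARG00000061952, at 2.004, 158 and 134 CPM. The table of gene names calls this identifier ECPAS, so its name is uncertain. The others of the widest 5 were si:ch211-246m6.5 (33.8, 1.43 and 50.4 CPM), the synaptic adhesion gene nlgn4b (1.91, 57.5 and 18.1) and si:dkey-9c18.3 (1.62, 26.4 and 45.4). A single library stood apart in some of these genes and not in others, and which library it was varied. At the other end, the splicing factor gene rbm39a was at 41.8, 41.8 and 41.9 CPM, and r3hdm4, tex2, slc4a1ap and unc119.1 varied by less than 1% between libraries. Counting error alone would give 4.01% at 20 to 100 CPM and 2.07% at 100 to 500. These 5 genes were picked for the smallest ratios among the 6360 entries. Whether their levels are steadier than those of other genes was not tested.

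In some gene families, chosen after their values were seen, nearly all reads fell on 1 of several related genes. The helicase subunit gene mcm3l had 1562, 1776 and 2814 reads, and the entries named mcm3 had 4, 0 and 1 and 0, 0 and 1. For the next subunit, mcm6l had 1339, 1517 and 2059 reads against 0 in every library for mcm6. Of the elongation factor 1 alpha genes, eef1a1l1 held 99.7% of the reads, and of the cytosolic HSP90 genes hsp90ab1 held 99.96%. Among signalling genes, smad5 held 99.5% of the reads of the BMP-branch Smads (smad1, smad5 and smad9), and sox19b 99.8% of those of sox19b, sox19a and sox3. For glycogen synthase kinase 3, which marks beta-catenin for destruction, gsk3ab stood at 394 ± 74.2 CPM, gsk3aa at 52.3 ± 17.3, gsk3b at 0.477 ± 0.0220 and gsk3bb at 0. Both copies were abundant in other pairs, such as actb2 at 1349.5 ± 85.2 and actb1 at 827 ± 12.1 CPM, or the translation factor genes eif4g2a at 469 ± 25.7 and eif4g2b at 381 ± 21.4. For the cytosolic poly(A)-binding proteins, pabpc1a held 68.0% of the reads, the oocyte form pabpc1l 31.2% and pabpc1b 0.775%. How often either case occurs over the genome was not counted. How reads that match more than 1 copy were counted is not given in the sources used here, so the split between near copies is uncertain.

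**Figure D5:**
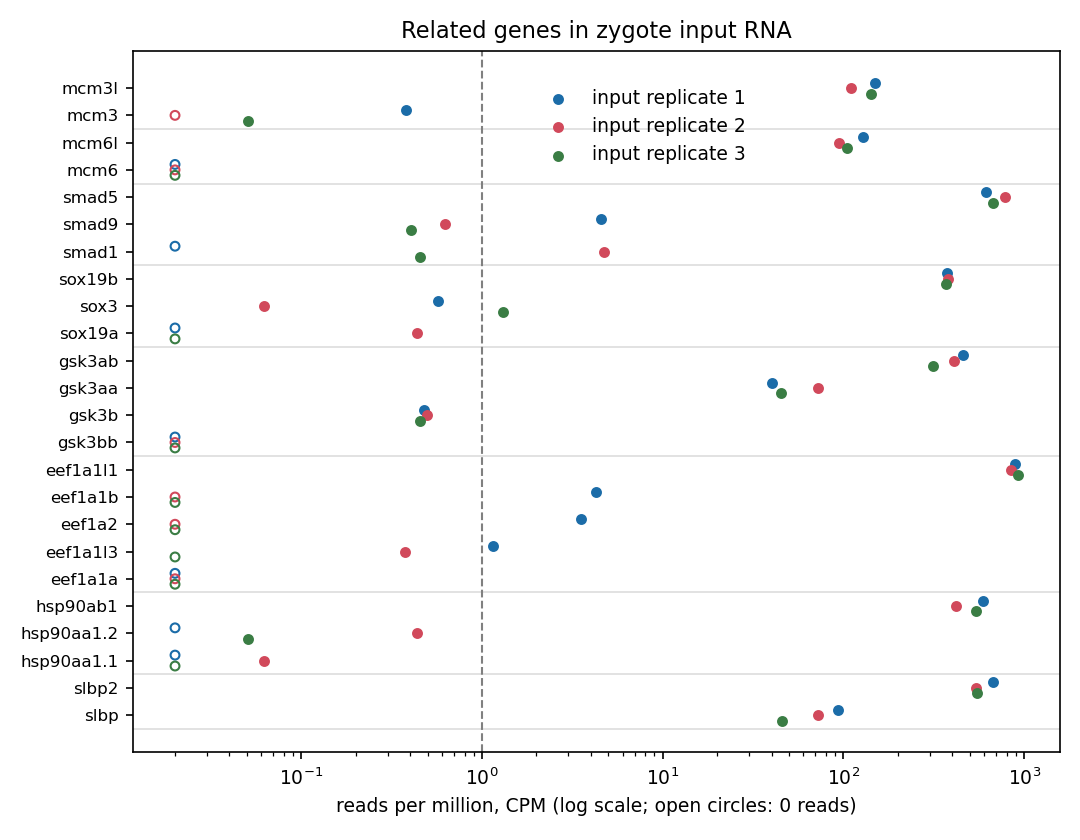
CPM (log scale) of related genes in each input library, with families separated by grey lines, open circles for 0 reads and the dashed line at 1 CPM. In each of the 8 families plotted the gene with most reads lies above 1 CPM in all 3 libraries, and of the other genes plotted only slbp and gsk3aa do so.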

How the data were processed

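RNA of zebrafish zygotes was extracted with Trizol, made into libraries with the NuGEN Ovation V2 kit and read as 50 bp single ends, per the labels' protocols. TopHat, DESeq and the Zv9 build appear in the submitters' processing notes. What counted the reads, on which annotation and whether by strand, is not given in the sources used here, so reads of a gene and of an overlapping antisense gene may be mixed. Values were deposited as a signal, the authors' normalized read counts with 1 decimal. In each input library all values above 0 (100%) lay within 0.06 of a whole multiple of the value of 1 read (1.12, 0.735 and 0.682), and division by it gave whole reads. The step recovered 100% of the values in data simulated for 21051 genes as whole reads times a constant. Such data have the form that the step assumes, so that result does not test the form of the deposited values. CPM used all reads of a library. No count test was run, because a single group was described and nothing was compared between groups.

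Names came from the file's symbols, from RefSeq synonyms (assembly GRCz12tu) where that failed, and last from a table in which 16425 of 21051 identifiers were found; 1962 entries had no name. The members and the 40 gene lists were chosen with earlier results of these data known, and 7 more lists after the values were seen. Names on a list that matched no entry do not enter its counts. Named were the 30 genes with most reads, the top 3 and undetected members of lists, regulators as needed (a few genes so chosen are not reported here), and the 5 steadiest and 5 most variable genes at 20 CPM or more. Alternatives covered the detection threshold, the total, the pseudocount and leaving out each library; scaling by coding length was not run, since no lengths were used here. The software was Python 3.11.15, with matplotlib 3.10.9 for figures and numpy 2.4.6, pandas 2.3.3 and scipy 1.17.1 for the rest.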

Additional observations from a re-analysis of the deposited data

How the results depend on the processing

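The count of detected entries stayed within 1.5 times of 11175 under every alternative run: 8698 at 5 CPM, 13247 at 0.1 CPM, 13821 with any read, 13428 at 1 normalized count, 11604 with the first 6 entries taken out of the total (added after the data were seen) and 11487 to 11675 without 1 library. The share of the top 10 entries was 28.8% to 32.3% and that of the listed mitochondrial genes 0.537% to 0.905% without 1 library. With the 10 entries with most reads out of the total, shares were 1.12% for translation factors, 1.02% for DNA methylation and histone modifiers, 0.978% for mRNA decay, 0.753% for RNA-binding, 0.551% for ribosomal proteins, 0.343% for oocyte forms, 0.283% for germ granule, 0.195% for germ plasm, 0.0599% for egg coat and 0.00658% for zygotic genes, as a smaller total and fewer members make them. The mean correlation of 0.940 became 0.888 with a pseudocount of 0.1 CPM and 0.968 over all entries, where shared zeros enter. At 5 CPM detected members were 11 for egg coat, 5 for TGF-beta ligands, 0 for FGF ligands, 38 for mitochondrial ribosomal proteins, 7 for cathepsins and 0 for neural and lens markers. At 0.1 CPM they were 7 for zygotic genes, 6 for FGF ligands, 8 for claudins, 3 for neural and lens and 1 for liver markers. Without 1 library zygotic genes ranged from 3 to 6 and neural and lens markers from 1 to 2, the higher values without replicate 1. Scaling by coding length was not run. No paired analysis was possible because a single group was described.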

Other observations

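Families of developmental transcription factors, added after the values were seen, were mostly below the detection threshold. Over all 21051 entries, 53.1% were detected, 12770 averaged 1 CPM or more and 15.2% had 0 reads. Of 39 Hox entries 2 were detected, hoxb2a at 19.9, 37.4 and 16.01 CPM and hoxc11a at 4.198, 1.87 and 2.88; 35 averaged under 1 CPM and 10 had 0 reads. Of 7 Gata entries 0 were detected, of 13 Pax entries 2 (pax7b at 5.15 ± 3.23 CPM and pax3a at 2.52 ± 1.67), of 18 Tbx entries 3 and of 19 Sox entries 4. In the last 2 families a single gene held most of the reads, with 85.7% of Tbx reads on eomesa and 81.9% of Sox reads on sox19b. The remaining detected Sox genes were sox13 at 51.2 ± 6.39 CPM, sox9b at 16.8 ± 4.96 and sox8 at 5.54 ± 3.05.

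Structural families were divided too. Over all 21051 entries, 53.1% were detected, 12770 averaged 1 CPM or more and 15.2% had 0 reads. Of 25 claudin entries, for proteins of tight junctions, 5 were detected, led by cldng at 496, 605 and 532 CPM, cldnd at 582, 461 and 393 and cldn7b at 339, 309.9 and 207, and 18 averaged under 1 CPM. Of 47 actin, tubulin and keratin entries 11 were detected, among them actb2, actb1 at 827 ± 12.1 CPM and tubb4b at 549 ± 56.2, and 16 had 0 reads. Of 41 kinesin entries 28 were detected (68.3%, all entries 53.1%), with the spindle motor gene kif11 at 714, 1045 and 813 CPM and the cytokinesis motor gene kif23 at 468, 459 and 477. Of 38 ubiquitin conjugating enzyme entries 37 were detected, and 0 were among the 500 with most reads (all entries 2.38%). Their median was 74.5 CPM, against 3.58 CPM over all entries. The kinesin and ubiquitin conjugating enzyme lists were also added after the values were seen.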
